A study of Schizosaccharomyces pombe with 8 samples.

Results

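RNA from 2 fission yeast mutants of the RNA polymerase II C-terminal domain (CTD) was compared directly: the tyrosine 1 mutant Y1F against the serine 7 mutant S7A. Fission yeast is Schizosaccharomyces pombe. The comparison was between 4 of the 8 libraries of the series, 2 per mutant, and began from all 7000 gene IDs of the deposited count table. The statistical fit took in all 8 libraries, with wild type and the serine 2 mutant S2A as the other strains, 2 libraries each. It tested 6243 IDs. The 17 IDs whose names start with SPBPB2B2 were set apart from the other 6983, because they form 1 block near an end of chromosome II. Y1F cells carried the allele rpb1 Y1F::kanMX6, S7A cells the allele rpb1 S7A::kanMX6, and wild-type (WT) cells neither. Mating type was h- throughout, and each strain had Rpb3-3HA::hphMX6, a tagged subunit of RNA polymerase II. Of Y1F, S7A and WT, only WT lacks kanMX6. Among them, the contrast of Y1F with S7A is thus the one between strains with the same markers. Cells were grown in rich YES medium to mid-log phase, and rRNA-depleted total RNA was sequenced with a kit that keeps the strand. Whether the 2 libraries of each strain stem from separate cultures is not in the labels. The spread behind the p-values is that between libraries of the same strain over all 8 libraries and may be technical.

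The CTD is a tail of repeats on Rpb1, the largest subunit of RNA polymerase II, and each repeat follows the order tyrosine, serine, proline, threonine, serine, proline, serine. Kinases and phosphatases change its phosphorylation as the polymerase moves along a gene, and factors for capping, splicing, chromatin modification and RNA 3′ end formation read the pattern. In Y1F the tyrosine at position 1 is replaced by phenylalanine, which has the same ring without the hydroxyl group that is phosphorylated. In S7A the serine at position 7 is replaced by alanine, which cannot be phosphorylated. In fission yeast the CTD is known for its part in phosphate genes that are repressed by transcription of a noncoding RNA upstream of them.

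The Y1F libraries held 13391705 and 21986870 counts, the S7A libraries 16780896 and 23081870, and the WT libraries 15699008 and 14620548. Levels are given as CPM, the counts of a gene relative to all counts of the library after TMM scaling, and changes as log2 fold changes ± SE of Y1F over S7A. The transcript of the mutated gene, rpb1 (SPBC28F2.12), was at 449.6 and 449 CPM in the Y1F libraries and 377 and 388 CPM in the S7A libraries, with 720.2 and 691 CPM in WT. It was higher in Y1F than in S7A by 0.23 ± 0.0438 (edgeR quasi-likelihood test, Benjamini-Hochberg adjusted p = 8.71e-04), and both mutants lay below both WT libraries. The substitutions themselves cannot be read from gene counts. Of the mating-type markers, the M-factor transporter gene mam1 was at 83.4 and 80.5 CPM in Y1F and 66.1 and 63.8 CPM in S7A, and the P-cell gene map1 was at 2.35 and 3.11 CPM in Y1F and 3.41 and 2.22 CPM in S7A.

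Of 6243 genes tested, 3042 (48.7%) differed between Y1F and S7A at an adjusted p under 0.05, and these are the genes described as called, higher or lower. They were split into 1606 higher in Y1F (25.7%) and 1436 lower (23.0%). Most of the differences were small, and 429 genes (6.87%) differed by at least 2-fold, 180 of them higher in Y1F (2.88%) and 249 lower (3.99%). Without the SPBPB2B2 IDs, 3030 (48.6%) of 6230 tested were called, 1606 (25.8%) higher and 1424 (22.9%) lower. Of these 417 (6.69%) differed by at least 2-fold, 180 (2.89%) higher and 237 (3.80%) lower. For 4820 genes (77.2%) the 2 Y1F libraries lay on one side of the 2 S7A libraries, so that a lack of overlap between libraries was common in this comparison. DESeq2 called 1105 genes higher and 1200 lower. With 2 libraries a side, no exact permutation test over libraries can give a two-sided p below 0.333, so the calls rest on the model fitted across all genes. In whole-culture RNA, fewer cells of a type and less RNA per cell cannot be told apart.

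**Figure D1:**
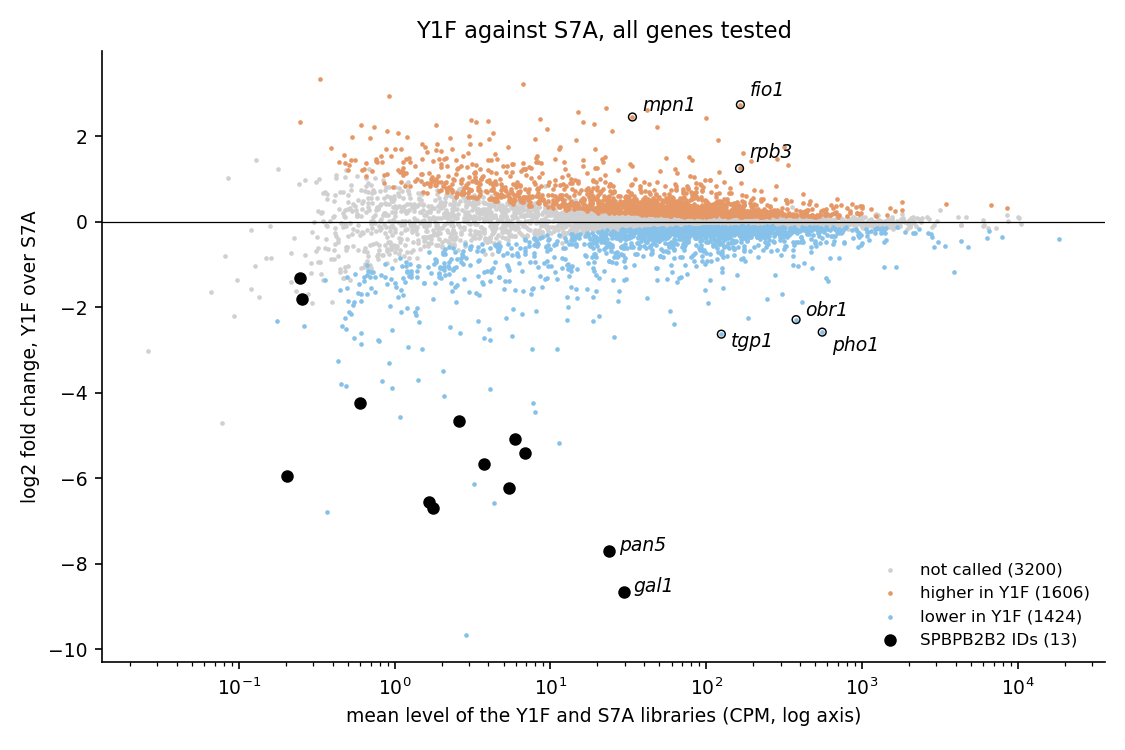
Each point is 1 of 6243 genes tested, with the mean level of the Y1F and S7A libraries (CPM, log axis) against the log2 fold change of Y1F over S7A. Black points are the 13 tested SPBPB2B2 IDs, which lie below 0 and include gal1 and pan5 at −8.66 and −7.70.

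The SPBPB2B2 block was close to silent in Y1F. Its 17 IDs together had 28 and 38 counts in the Y1F libraries, against 2658 and 3796 in S7A, and 3420 and 3642 in WT. No ID had more than 6 counts in a Y1F library, while the most in an S7A library was 1349. The block holds the galactose genes and the genes around them. Of the 17 IDs, 13 were tested, 12 were lower in Y1F (92.3%, beside 23.0% of all genes), none was higher and 1 was not called. All 13 tested had less in both Y1F libraries than in both S7A libraries, which was so for 36.8% of all tested genes. With so few counts in Y1F, the count filter kept only IDs that were high enough in other strains, S2A among them. Both shares are thus partly set by the filter, while the summed counts of the 17 IDs do not depend on it. The IDs not tested were SPBPB2B2.07c, SPBPB2B2.15, SPBPB2B2.16c and ftm7, and SPBPB2B2.16c had 0 counts in every library. The median change of the tested IDs was −5.66, or −5.42 with the ID at 0 counts in Y1F set to its bound.

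gal1 (SPBPB2B2.13), which encodes galactokinase, had 3 and 2 counts in the Y1F libraries, 967 and 1349 in S7A, and 627 and 586 in WT. Its change was −8.66 ± 0.161 (edgeR adjusted p = 2.79e-12). gal10 (SPBPB2B2.12c), for the epimerase of the same pathway, had 2 and 3 counts in Y1F, 125 and 163 in S7A, and 125 and 133 in WT, a change of −5.66 ± 0.295 (edgeR adjusted p = 2.10e-08). gal7 (SPBPB2B2.10c), the uridylyltransferase gene, had 5 and 6 counts in Y1F, 218 and 306 in S7A, and 164 and 169 in WT, a change of −5.42 ± 0.246 (edgeR adjusted p = 5.61e-09). For all 3 galactose genes Y1F was near 0. S7A was above WT for gal1 (0.54, edgeR adjusted p = 3.18e-05) and was not called against WT for gal7 and gal10.

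Most genes around them were also low in Y1F. pan5 (SPBPB2B2.09c), annotated as a 2-dehydropantoate 2-reductase, had 4 and 4 counts in Y1F, 815 and 1045 in S7A, and 1394 and 1392 in WT, a change of −7.70 ± 0.150 (edgeR adjusted p = 2.79e-12). nrg1 (SPBPB2B2.01), annotated as an amino acid permease, had 6 and 6 counts in Y1F, 173 and 283 in S7A, and 646 and 792 in WT, a change of −5.09 ± 0.308. For pan5 and nrg1 the S7A libraries also lay below WT, by −0.97 (edgeR adjusted p = 6.77e-08) and −2.06 (edgeR adjusted p = 9.80e-08). tgd1, a nucleotide-sugar dehydratase gene, had 1 and 6 counts in Y1F and 74 and 127 in S7A. SPBPB2B2.06c, a predicted phosphatase gene, had 1 and 4 counts in Y1F and 143 and 291 in S7A. With so few counts the size of a change, though not its call, hung on single Y1F libraries. Without Y1F replicate 1 the change of gal1 was −9.27, and without Y1F replicate 2 that of gal1 was −8.02, of tgd1 −5.98 and of SPBPB2B2.06c −7.08 (−4.67 and −6.24 for the last 2 genes with all libraries).

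Where Y1F had 1 to 3 counts in all, only a ratio with its exact 95% counting interval is given, and it covers counting error alone. The sterol deacetylase gene say1 had 1 and 0 counts in Y1F and 56 and 72 in S7A, a level 118-fold lower in Y1F (20.8 to 4698). SPBPB2B2.05, a predicted glutamine amidotransferase gene, had 0 and 1 counts in Y1F and 50 and 91 in S7A, 130-fold lower (23.0 to 5171). SPBPB2B2.08 had 0 and 2 counts in Y1F and 18 and 28 in S7A, 21.2-fold lower (5.55 to 180). SPBPB2B2.18 had 0 counts in both Y1F libraries and 4 and 13 in S7A, which with 3 counts over the Y1F group as the limit was at least 5.23-fold lower. The IDs nearest the detection limit were less certain. SPBPB2B2.14c had 2 and 2 counts in Y1F, 5 and 11 in S7A, and 1 and 1 in WT (−1.81 ± 0.626, edgeR adjusted p = 0.0300), and it was no longer called by DESeq2 (adjusted p = 0.150) or without S7A replicate 2, Y1F replicate 1 or Y1F replicate 2 (0.240, 0.0645 and 0.231). SPBPB2B2.19c had 3 and 2 counts in Y1F and 4 and 10 in S7A and was not called (−1.32 ± 0.635, edgeR adjusted p = 0.105).

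The 3 other IDs that lie between the SPBPB2B2 IDs are noncoding RNAs, and both that were tested were low in Y1F too. nam3 had 15 and 7 counts in Y1F and 346 and 529 in S7A, a change of −5.17 ± 0.267 (edgeR adjusted p = 1.97e-08), or −6.13 without Y1F replicate 1. SPNCRNA.1697, which lies opposite gal1, had 2 and 1 counts in Y1F and 110 and 137 in S7A, 75.9-fold lower (25.7 to 371). On either side of the block the changes varied. Toward the centromere, the proteasome-regulator-like gene fub2 had 7 and 10 counts in Y1F and 37 and 58 in S7A (−2.34 ± 0.297), and SPNCRNA.1695, the ID next to the block, was not called. Toward the end of the chromosome 9 further IDs are annotated, of which SPBCPT2R1.01c (−2.20) and SPBCPT2R1.04c (−1.65) had few counts and were not called and 6 were not tested. With so few counts there, where the low stretch ends on this side cannot be read. The ninth, the subtelomeric helicase gene tlh2, had 53 and 73 counts in Y1F, 97 and 124 in S7A, and 48 and 46 in WT (−0.68 ± 0.173, edgeR adjusted p = 0.00599). tlh2 and tlh1 are near-identical copies whose reads the counting could have split. Whether this stretch of DNA was present in the Y1F strain was not tested.

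**Figure D2:**
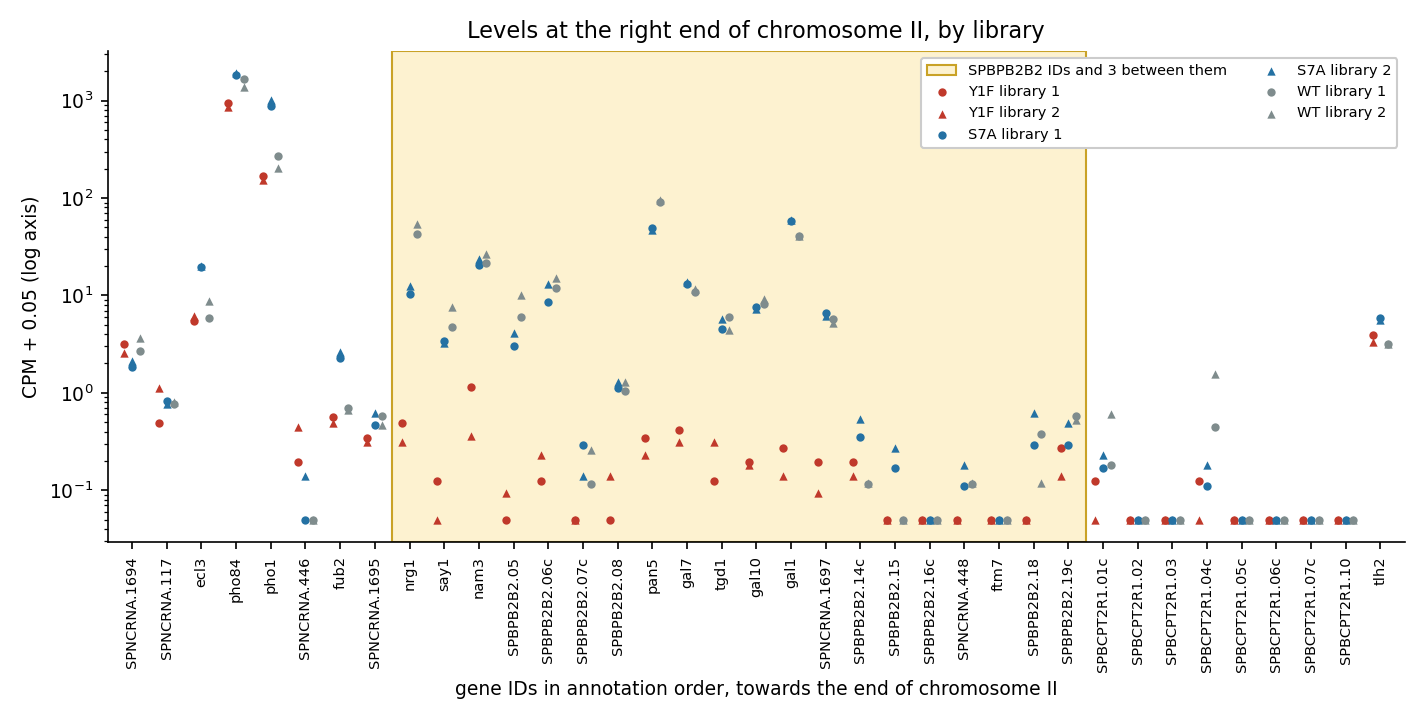
Level in each library (CPM plus 0.05, log axis) of the gene IDs at the right end of chromosome II in annotation order, with Y1F, S7A and WT side by side. In the shaded block, gal1 has 3 and 2 counts in the Y1F libraries and 967 and 1349 in S7A, while pho1 and tlh2 on either side stay detected in Y1F.

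Genes near the other ends of chromosomes I and II were also more often lower than higher in Y1F. Among the 50 outermost annotated IDs of each of these 3 ends 81 were tested, 37 were lower in Y1F (45.7%) and 6 higher (7.41%), beside 23.0% and 25.7% of all genes. The median change was −0.96, against 0.02 over all genes. The last 50 IDs of chromosome I had 17 lower and 0 higher of 28 tested, the first 50 had 10 and 4 of 24, and the first 50 of chromosome II had 10 and 2 of 29. Against WT, 46 of the 81 were lower in Y1F and 0 higher, while in S7A 36 were lower and 14 higher. Over all genes tested 17.4% were lower and 17.6% higher in Y1F than in WT, and 24.3% lower and 23.1% higher in S7A than in WT, and both comparisons use the same WT libraries. At the right end of chromosome II, 22 IDs outside the span of the block were tested among the last 50, and 10 were lower and 5 higher.

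yhb1 (SPAC869.02c), a nitric oxide dioxygenase gene in the last 50 IDs of chromosome I, was at 21.4 and 18.7 CPM in Y1F, 103.9 and 104.0 CPM in S7A, and 86.4 and 85.1 CPM in WT. The Y1F libraries stood apart from the other 4, and the change was −2.39 ± 0.0587 (edgeR adjusted p = 1.92e-11). cmt2, a catechol O-methyltransferase gene of the left end of chromosome II, was at 2.06 and 2.80 CPM in Y1F, 17.9 and 21.6 CPM in S7A, and 5.37 and 6.32 CPM in WT (−2.98 ± 0.174). aes1, its neighbour of the phenazine biosynthesis family, was at 2.06 and 1.51 CPM in Y1F, 11.1 and 15.9 CPM in S7A, and 18.2 and 17.4 CPM in WT (−2.99 ± 0.221). For cmt2 S7A was above WT and for aes1 close to it, so their drop against S7A had different WT levels behind it. At the left end of chromosome I, the uncharacterised SPAC212.04c had 1 and 2 counts in Y1F, 139 and 197 in S7A, and 55 and 85 in WT, 103-fold lower in Y1F than in S7A (35.0 to 503). tlh1, at the very end there, had 25 and 19 counts in Y1F and 63 and 76 in S7A (−1.52 ± 0.291); it was chosen after its values were seen.

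All 3 phosphate acquisition genes were lower in Y1F (100%, beside 23.0% of all genes). These genes serve uptake and release of phosphate and are held down in phosphate-rich medium. tgp1 (SPBC1271.09), a glycerophosphodiester transporter gene, was at 37.3 and 32.7 CPM in Y1F, 204 and 226 CPM in S7A, and 25.1 and 21.0 CPM in WT. The S7A libraries stood far above the other 4, and the change was −2.63 ± 0.103 (edgeR adjusted p = 1.41e-09). pho1 (SPBP4G3.02), the secreted acid phosphatase gene, was at 167 and 152 CPM in Y1F, 890.3 and 1014 CPM in S7A, and 271 and 204 CPM in WT. S7A was again the highest and Y1F lay below both WT libraries, with a change of −2.58 ± 0.112 (edgeR adjusted p = 3.49e-09). pho84 (SPBC8E4.01c), the phosphate transporter gene, was at 957 and 851 CPM in Y1F, 1831 and 1920.1 CPM in S7A, and 1665 and 1384 CPM in WT, a change of −1.05 ± 0.0864 (edgeR adjusted p = 9.78e-07). pho84 and pho1 are neighbours that lie a few IDs from the SPBPB2B2 block.

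Against WT the mutants went different ways for pho1 and pho84. Y1F was below WT by −0.58 (edgeR adjusted p = 0.00161) for pho1 and by −0.75 (edgeR adjusted p = 3.68e-05) for pho84, and S7A was above it by 2.00 (edgeR adjusted p = 4.49e-08) and 0.30 (edgeR adjusted p = 0.0124). For tgp1 both were above WT, Y1F by 0.59 (edgeR adjusted p = 0.00440) and S7A by 3.22 (edgeR adjusted p = 1.28e-09). The noncoding RNA ncRNA.1343, which neighbours tgp1 and was chosen after its values were seen, ran the other way. It was at 29.3 and 33.6 CPM in Y1F, 6.95 and 6.13 CPM in S7A, and 33.5 and 30.9 CPM in WT, a change of 2.29 ± 0.106 (edgeR adjusted p = 7.25e-09).

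Of 7 regulators of phosphate and inositol pyrophosphate metabolism tested, 4 were lower in Y1F (57.1%, beside 23.0% of all genes) and none higher. vtc4 (SPCC1322.14c), which encodes a subunit of the vacuolar polyphosphate-making complex, was at 181 and 170.4 CPM in Y1F, 640.1 and 652 CPM in S7A, and 267 and 237 CPM in WT, a change of −1.88 ± 0.0564 (edgeR adjusted p = 1.39e-10). The other 3 changed less: the hydrolase gene aps1 by −0.38 ± 0.0544, asp1 for the inositol pyrophosphate kinase and phosphatase by −0.37 ± 0.0470, and the pyrophosphatase gene siw14 by −0.37 ± 0.0573. pho7, which encodes the activator of phosphate genes, csk1 and pqr1 were not called.

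**Figure D3:**
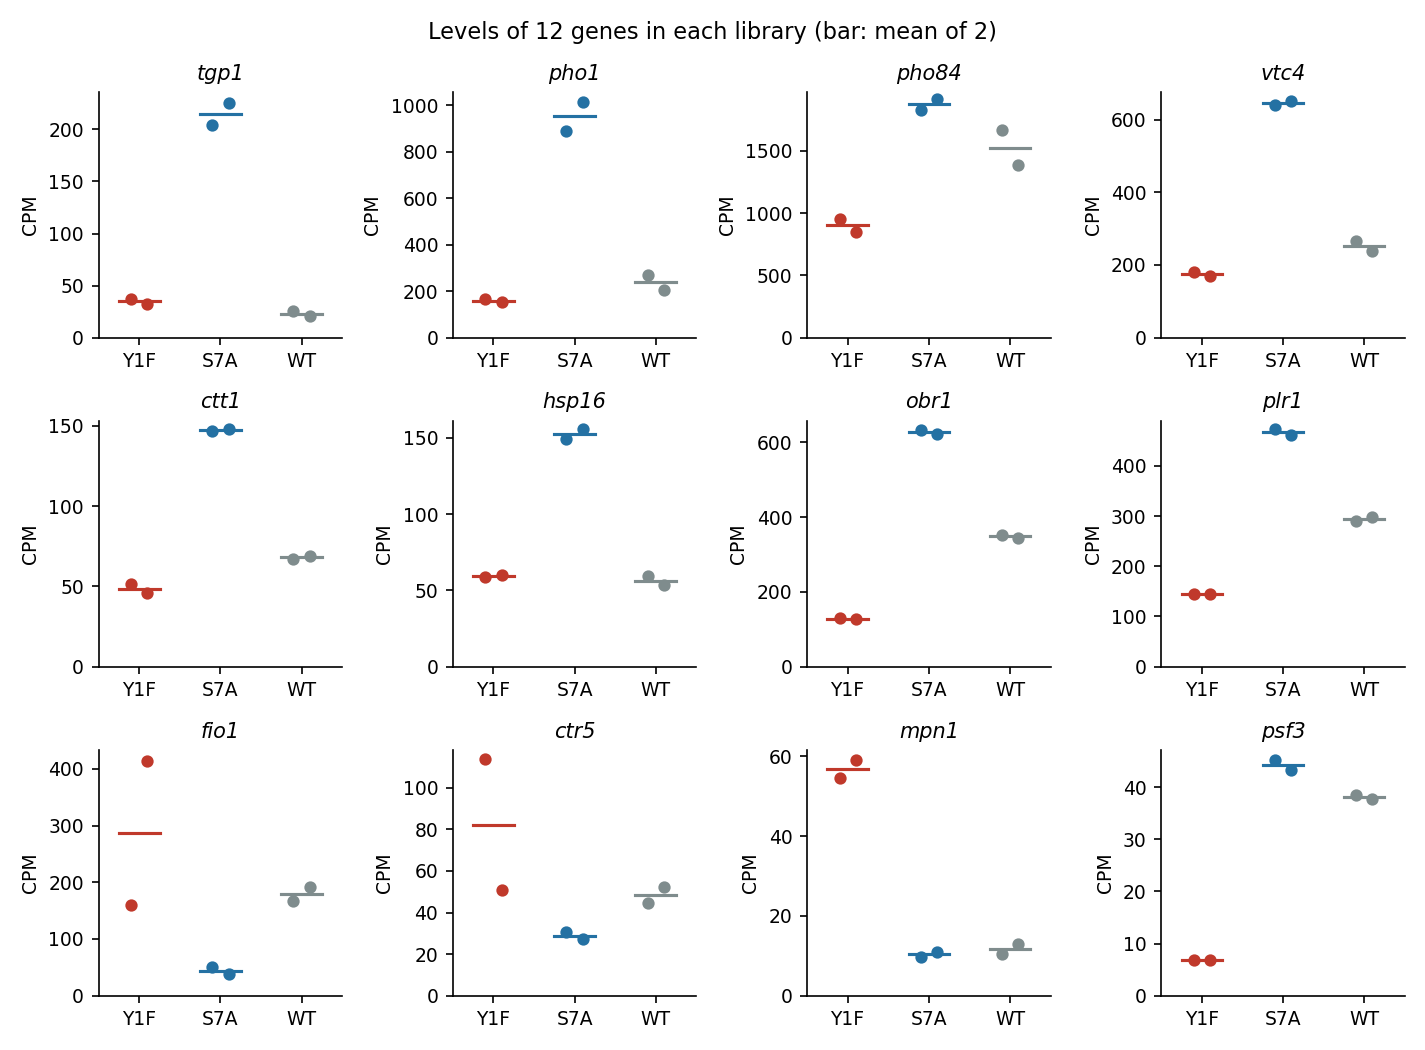
Level of 12 genes in each Y1F, S7A and WT library (CPM, linear axes from 0), with bars at the mean of 2. For tgp1, pho1, vtc4, ctt1, hsp16, obr1 and plr1 both S7A libraries lie above the other 4, for mpn1 both Y1F libraries do, and for fio1 and ctr5 the 2 Y1F libraries differ from each other (160.4 and 414 CPM for fio1).

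Core stress response genes were mostly lower in Y1F than in S7A. These genes are induced by many stresses through the kinase Sty1 and the transcription factor Atf1. Of 18 tested, 11 were lower (61.1%), 2 higher (11.1%) and 5 not called, with a median of −0.47. Over all genes 23.0% were lower and 25.7% higher, with a median of 0.02. Without Y1F replicate 2 the median was −0.76. Against WT 4 were higher and 6 lower in Y1F, and 13 were higher and 3 lower in S7A. Over all genes 17.6% were higher and 17.4% lower in Y1F than in WT, and 23.1% and 24.3% in S7A.

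The quinone reductase gene obr1 (SPAC3C7.14c) was at 129 and 127 CPM in Y1F, 632 and 622 CPM in S7A, and 352 and 345 CPM in WT, a change of −2.29 ± 0.0483 (edgeR adjusted p = 4.99e-12). plr1 (SPAC9E9.11), for pyridoxal reductase, was at 145 and 146 CPM in Y1F, 473 and 461 CPM in S7A, and 291 and 298 CPM in WT, a change of −1.68 ± 0.0444 (edgeR adjusted p = 3.88e-11). In both genes WT lay between the mutants. The catalase gene ctt1 (SPCC757.07c) was at 51.5 and 45.8 CPM in Y1F, 147 and 148 CPM in S7A, and 67.1 and 69.1 CPM in WT (−1.61 ± 0.0537, edgeR adjusted p = 3.49e-10). The cation pump gene cta3 was at 6.68 and 5.95 CPM in Y1F, 28.2 and 33.8 CPM in S7A, and 4.26 and 3.50 CPM in WT (−2.31 ± 0.133). The small heat shock gene hsp16 was at 58.5 and 60.3 CPM in Y1F, 149 and 156 CPM in S7A, and 59.5 and 53.2 CPM in WT (−1.36 ± 0.0586). For hsp16 and ctt1 the Y1F libraries were close to or below WT while S7A stood above all others.

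Of the remaining stress genes, tps1 for trehalose synthesis changed by −1.24, the trehalase gene ntp1 by −0.93, atf1 itself by −0.62 and hsp9 by −0.54. The 2 that were higher were zym1, the metallothionein gene, at 0.80 ± 0.156 and pyp2, for the phosphatase that turns Sty1 off, at 0.49 ± 0.105. zym1 was at 24.2 and 23.4 CPM in Y1F, 11.7 and 15.4 CPM in S7A, and 9.63 and 5.84 CPM in WT. srx1, gpx1, trx2, rds1 and hri1 were not called.

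Among 16 chaperone genes tested, 8 were lower in Y1F (50%, beside 23.0% of all genes), 1 was higher (6.25%, beside 25.7%) and 7 were not called, with a median of −0.20. Without Y1F replicate 1 the 8 became 5 and the median −0.13. ssa1, a cytosolic Hsp70 gene, was at 46.5 and 81.9 CPM in Y1F, 208 and 179 CPM in S7A, and 36.5 and 83.1 CPM in WT, a change of −1.56 ± 0.282 (edgeR adjusted p = 6.68e-04). The 2 Y1F libraries differed from each other, as did the 2 WT libraries, and both S7A libraries lay above all 4. hsf1, for the heat shock transcription factor, was at 103 and 97.1 CPM in Y1F and 150.2 and 136 CPM in S7A (−0.52 ± 0.0550), and the DnaJ gene mas5 changed by −0.46 ± 0.0529. hsp104, for the disaggregase, was at 200.3 and 323 CPM in Y1F and 492 and 433 CPM in S7A (−0.81 ± 0.252, edgeR adjusted p = 0.0181), and it was no longer called by DESeq2 (adjusted p = 0.118) or without Y1F replicate 1 or S7A replicate 1 (0.143 and 0.0834). The gene that was higher was hsp10, for the mitochondrial cochaperonin, at 0.21 ± 0.0521, and none was higher without Y1F replicate 2.

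**Figure D4:**
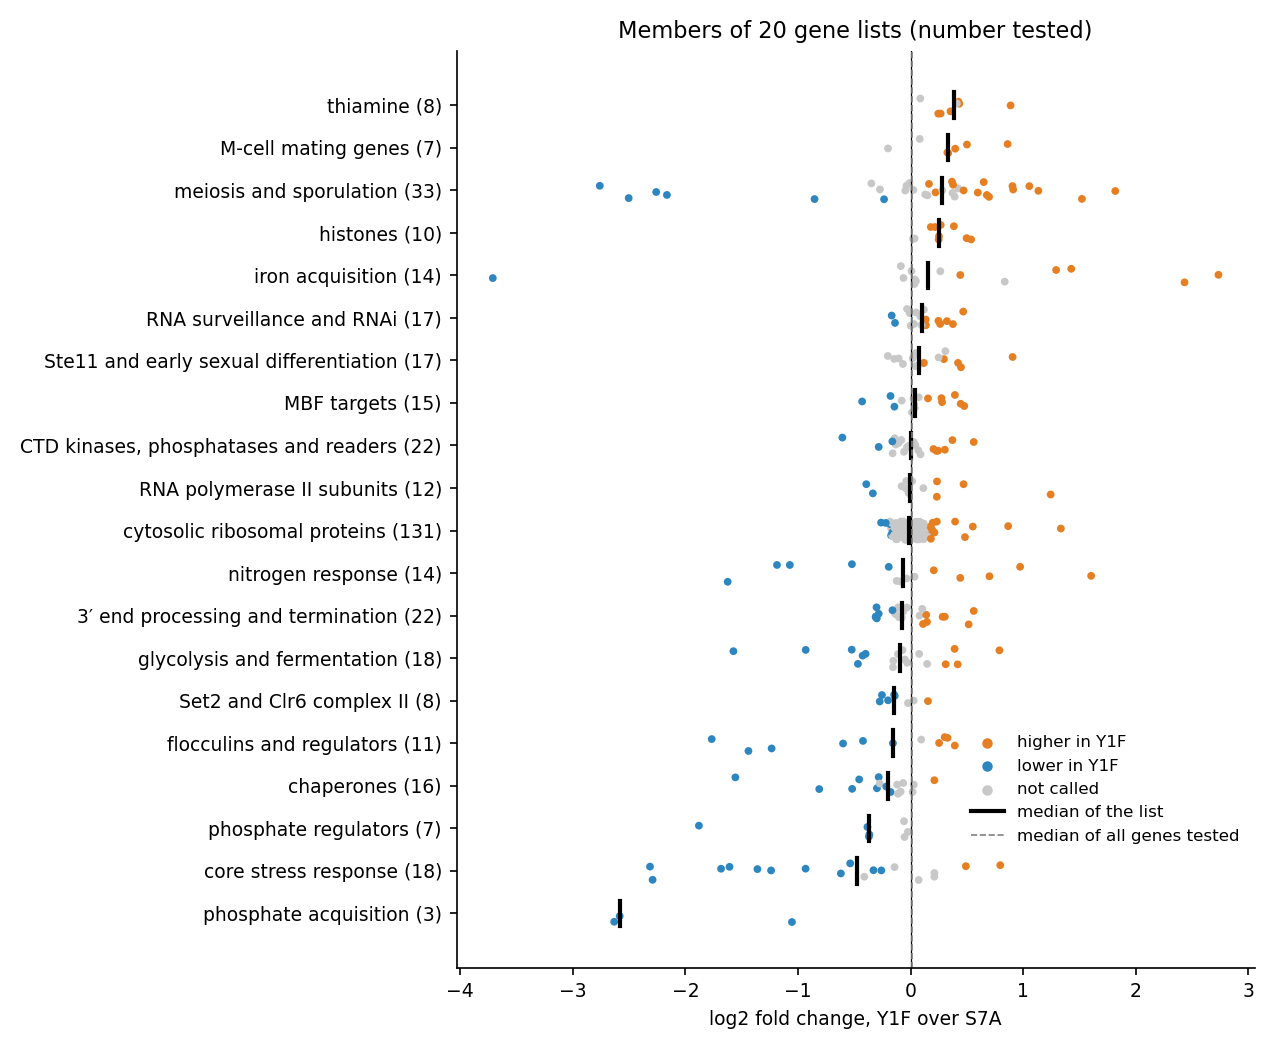
Log2 fold change of Y1F over S7A for each tested member of 20 gene lists (points), with the median of each list (bar) and of all genes tested (dashed line). The phosphate acquisition genes lie lowest, with a median of −2.58, and the core stress response genes next at −0.47.

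Meiotic genes were split. Of 33 genes of meiosis and sporulation tested, 15 were higher in Y1F (45.5%), 6 lower (18.2%) and 12 not called, beside 25.7% and 23.0% of all genes, with a median of 0.28. Among those that fell, Y1F was near WT for spn6, at or above both WT libraries for spn5, and below both for spo6. The septin gene spn6 (SPCC188.12) was at 1.10 and 1.02 CPM in Y1F, 7.25 and 7.11 CPM in S7A, and 0.851 and 1.03 CPM in WT (−2.76 ± 0.203, edgeR adjusted p = 3.71e-07). spn5, for another meiotic septin, was at 2.64 and 2.17 CPM in Y1F, 11.02 and 10.3 CPM in S7A, and 2.16 and 0.755 CPM in WT (−2.16 ± 0.246). spo6, for the regulatory subunit of a meiotic kinase, was at 1.54 and 0.976 CPM in Y1F, 6.29 and 7.29 CPM in S7A, and 4.78 and 3.91 CPM in WT (−2.50 ± 0.247). meu27 also fell, by −2.26 ± 0.178.

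The meiotic genes that rose are best seen in mek1 and ssm4. mek1 (SPAC14C4.03), for the kinase of the meiotic recombination checkpoint, was at 5.58 and 5.32 CPM in Y1F, 1.80 and 1.33 CPM in S7A, and 3.86 and 3.57 CPM in WT (1.82 ± 0.210, edgeR adjusted p = 1.91e-05). ssm4, for a dynactin subunit of horsetail movement, was at 34.7 and 31.8 CPM in Y1F, 11.1 and 11.8 CPM in S7A, and 15.3 and 16.6 CPM in WT (1.52 ± 0.0902, edgeR adjusted p = 5.89e-08). The meiotic cyclin gene crs1 changed by 1.13 ± 0.178 and the recombinase gene dmc1 by 1.05 ± 0.176. mek1, ssm4 and crs1 belong to the transcripts that the protein Mmi1 is known to remove in growing cells.

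Several genes outside that list were among the 12 protein-coding genes that rose most in Y1F against S7A. Those given here were picked from the 12 by their annotation, with no set test. The shugoshin gene sgo1, whose product guards centromeric cohesin in meiosis, was at 23.8 and 22.5 CPM in Y1F, 6.17 and 6.04 CPM in S7A, and 14.2 and 16.1 CPM in WT (1.92 ± 0.107). tht1, needed for nuclear fusion after mating, was at 36.9 and 43.7 CPM in Y1F, 9.94 and 8.89 CPM in S7A, and 19.4 and 21.4 CPM in WT (2.12 ± 0.102). meu18 was at 79.5 and 78.4 CPM in Y1F, 17.6 and 16.6 CPM in S7A, and 41.7 and 40.7 CPM in WT (2.21 ± 0.0663, edgeR adjusted p = 1.39e-10). In these genes and in mug94 (2.57 ± 0.141) WT lay between the mutants. SPBC557.05, annotated as a meiotic arrestin gene, changed by 1.93 ± 0.152.

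The master regulators of sexual differentiation were not called between the mutants. ste11 (SPBC32C12.02), for the transcription factor that opens the programme, was at 58.5 and 63.4 CPM in Y1F and 64.0 and 55.2 CPM in S7A (0.04 ± 0.0937, edgeR adjusted p = 0.739). mei2 (SPAC27D7.03c), for the RNA-binding protein that starts meiosis, was at 15.1 and 19.1 CPM in Y1F, 22.5 and 18.0 CPM in S7A, and 88.1 and 77.4 CPM in WT (−0.20 ± 0.135, edgeR adjusted p = 0.235). The libraries of the mutants overlapped for both genes, and for mei2 all 4 lay far below WT. Of 17 early differentiation genes tested, 5 were higher in Y1F (29.4%, near the 25.7% of all genes) and none lower, with a median of 0.07 that was 0.15 without S7A replicate 1. The largest change was in ste4, of the pheromone signalling cascade, at 17.0 and 17.7 CPM in Y1F, 9.64 and 9.02 CPM in S7A, and 23.0 and 23.6 CPM in WT (0.91 ± 0.111). byr1, the kinase gene of the same cascade, changed by 0.42 ± 0.0791. The 5 became 2 without S7A replicate 2 or Y1F replicate 2 and 3 without S7A replicate 1 and by DESeq2, and 1 gene was lower with only the 4 compared libraries fitted or without WT replicate 1.

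Of 7 M-cell genes 5 were higher in Y1F (71.4%, beside 25.7% of all genes) and none lower (median 0.33). Of 5 P-cell genes 1 was higher (20%) and 1 lower (20%), near the 25.7% and 23.0% of all genes. The M-cell genes mam1, for the M-factor exporter, and sxa2, for the peptidase that removes P-factor, changed by 0.33 ± 0.0465 and 0.50 ± 0.107. The P-cell gene map2, for P-factor, was at 7.35 and 6.57 CPM in Y1F and 4.13 and 4.49 CPM in S7A (0.67 ± 0.153), and sxa1 changed by −0.21 ± 0.0423. The 5 M-cell calls became 2 without S7A replicate 2 or Y1F replicate 2, and 3 without Y1F replicate 1 or by DESeq2.

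Genes of reductive iron uptake were among the genes higher in Y1F, with a wide spread between its libraries. Of 14 iron acquisition genes tested, 5 were higher (35.7%, beside 25.7% of all genes), 1 lower (7.14%, beside 23.0%) and 8 not called. fio1 (SPAC1F7.08), for the multicopper oxidase, was at 160.4 and 414 CPM in Y1F, 50.8 and 37.4 CPM in S7A, and 168 and 192 CPM in WT. Its change of 2.73 ± 0.321 (edgeR adjusted p = 2.24e-05) was 1.88 without Y1F replicate 2. fip1, for the permease partner of Fio1, was at 94.4 and 243 CPM in Y1F, 37.4 and 27.1 CPM in S7A, and 105 and 124 CPM in WT (2.43 ± 0.323, and 1.57 without Y1F replicate 2). The siderophore transporter gene str1 was at 188 and 372 CPM in Y1F, 131 and 81.3 CPM in S7A, and 240.3 and 341 CPM in WT (1.43 ± 0.269, and 0.84 without Y1F replicate 2). In all 3 the S7A libraries were the lowest of the strains compared, and Y1F was not called against WT (edgeR adjusted p = 0.0810 for fio1, 0.132 for fip1 and 0.916 for str1). frp1, the ferric reductase gene, changed by 1.29 ± 0.221. The gene that was lower was shu1, for the heme uptake protein, at 2 and 5 counts in Y1F, 50 and 52 in S7A, and 6 and 5 in WT (−3.71 ± 0.384).

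Of 4 copper uptake genes 2 were higher in Y1F (50%, beside 25.7% of all genes). ctr5, for a subunit of the copper transporter, was at 114 and 50.7 CPM in Y1F and 30.6 and 27.1 CPM in S7A (1.48 ± 0.285, edgeR adjusted p = 0.00103, and 0.82 without Y1F replicate 1). ctr4, for its partner, was at 144 and 35.5 CPM in Y1F and 40.0 and 34.1 CPM in S7A, so that the mutants' libraries overlapped and its call rested on Y1F replicate 1. The count of 2 became 1 by DESeq2 and with a replicate block. It also changed without S7A replicate 1, S7A replicate 2, Y1F replicate 1 or S2A replicate 1.

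Thiamine genes were higher in Y1F, with 6 of 8 higher (75%, beside 25.7% of all genes), none lower and a median of 0.38. The thiamine transporter gene thi9 (SPAC9.10) was at 45.2 and 42.0 CPM in Y1F, 22.3 and 24.4 CPM in S7A, and 61.1 and 56.2 CPM in WT (0.89 ± 0.0732, edgeR adjusted p = 1.03e-06). thi2 and thi5 changed by 0.43 ± 0.0678 and 0.42 ± 0.0678. nmt1, the strongly thiamine-repressed synthesis gene, was near the detection limit at 1.10 and 0.754 CPM in Y1F and 1.02 and 0.400 CPM in S7A and was not called. Against WT 1 of the 8 was lower in Y1F and 6 in S7A, beside 17.4% and 24.3% of all genes, and none was higher in either.

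Nitrogen-responsive genes went both ways, with 5 higher (35.7%, beside 25.7% of all genes), 5 lower (35.7%, beside 23.0%) and 4 not called of 14. The oligopeptide transporter gene isp4 was at 256 and 266 CPM in Y1F, 70.6 and 100.1 CPM in S7A, and 214 and 154 CPM in WT (1.60 ± 0.153). isp7, for an oxygenase that regulates amino acid uptake, was at 140.4 and 140.2 CPM in Y1F and 71.4 and 71.6 CPM in S7A (0.97 ± 0.0783), and the ammonium transporter gene amt1 changed by 0.44 ± 0.0487. In the other direction, the proline transporter gene put4 was at 13.3 and 13.8 CPM in Y1F, 38.5 and 44.8 CPM in S7A, and 35.6 and 37.0 CPM in WT (−1.62 ± 0.0991). The arginine and lysine transporter gene cat1 was at 40.2 and 33.9 CPM in Y1F and 86.4 and 80.6 CPM in S7A (−1.19 ± 0.0712), and mae2, for malic enzyme, was at 1036 and 1089 CPM in Y1F and 2275 and 2195 CPM in S7A (−1.07 ± 0.0535). put4 and cat1 stood close together near the right end of chromosome I, with yhb1. The 5 lower genes became 3 without S7A replicate 2 or Y1F replicate 2.

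The genes of factors that bind or modify the CTD were called about as often as all genes. Of 22 genes for kinases, phosphatases and readers of the CTD, Y1F had 6 higher (27.3%, beside 25.7% of all genes) and 3 lower (13.6%, beside 23.0%). Their median of 0.01 turned to −0.01 under DESeq2 or RLE scaling. The median of all genes also moved down, from 0.0157 to 0.0021 by DESeq2 and 0.0007 under RLE scaling. The 6 became 3 without S7A replicate 1, without Y1F replicate 1 and by DESeq2, and the 3 became 5 with only the 4 compared libraries fitted. A list of 22 genes of transcript cleavage, polyadenylation and termination shares 5 of its members with it, among them seb1 and pcf11. Of these 22, 7 rose (31.8%) and 6 fell (27.3%), again close to the shares of all genes, with a median of −0.07. The 7 became 4 without S7A replicate 1, S7A replicate 2 or Y1F replicate 1 and by DESeq2. seb1 (SPAC222.09), for the CTD reader that acts in termination, was at 237 and 238 CPM in Y1F, 161 and 161 CPM in S7A, and 218 and 208 CPM in WT (0.56 ± 0.0435, edgeR adjusted p = 6.21e-07). sen1, for a helicase, was at 379 and 385 CPM in Y1F, 268 and 267 CPM in S7A, and 295 and 299.6 CPM in WT (0.52 ± 0.0403, edgeR adjusted p = 6.53e-07). For both genes the Y1F and S7A libraries differed by far more than the 2 libraries of either strain. pcf11, for the termination factor that binds the CTD, was at 99.7 and 97.4 CPM in Y1F and 77.0 and 82.2 CPM in S7A (0.30 ± 0.0459). The cleavage factor genes pfs2 and swd22 both changed by −0.31.

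lsg1, for the gamma subunit of the Lsk1 kinase complex, was at 23.9 and 22.8 CPM in Y1F and 35.2 and 35.6 CPM in S7A (−0.61 ± 0.0724). The catalytic subunit gene lsk1, for the serine 2 kinase, was at 97.3 and 94.1 CPM in Y1F and 93.1 and 95.1 CPM in S7A (0.02 ± 0.0425, edgeR adjusted p = 0.698). The histone methyltransferase gene set2 was at 188 and 185 CPM in Y1F and 183 and 182 CPM in S7A (0.03 ± 0.0438, edgeR adjusted p = 0.626). set1, for the methyltransferase of promoter chromatin, changed by 0.37 ± 0.0438. Of 8 genes of Set2 and the histone deacetylase complex Clr6 complex II, 5 were lower in Y1F (62.5%, beside 23.0% of all genes), with clr6 at −0.27 ± 0.0546, and 1 was higher (12.5%, beside 25.7%). That count of 5 became 1 without Y1F replicate 2, 2 without S7A replicate 1, and 3 without Y1F replicate 1, S7A replicate 2 or by DESeq2, and the 1 became 0 without S7A replicate 1, S7A replicate 2 or Y1F replicate 2 and by DESeq2.

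Among 17 genes of RNA surveillance and RNA interference 7 were higher in Y1F (41.2%, beside 25.7% of all genes) and 2 lower (11.8%, beside 23.0%), with a median of 0.10. The 2 became 0 without S7A replicate 1 or Y1F replicate 1, and 1 without S7A replicate 2 or Y1F replicate 2 and by DESeq2. mmi1, for the protein that marks meiotic transcripts for removal, was at 183 and 181 CPM in Y1F, 132 and 132 CPM in S7A, and 169 and 167 CPM in WT (0.47 ± 0.0402, edgeR adjusted p = 1.50e-06). clr4, for the heterochromatin methyltransferase, changed by 0.38 ± 0.0483, the poly(A) polymerase gene cid14 by 0.32 ± 0.0448, ago1 by 0.26 ± 0.0526 and the exosome gene rrp6 by 0.25 ± 0.0464.

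Among 12 RNA polymerase II subunit genes, 4 were higher (33.3%, beside 25.7% of all genes) and 2 lower (16.7%, beside 23.0%) in Y1F, and rpb3 had the largest change. rpb3 (SPCC1442.10c), the gene tagged in all strains, was at 224 and 236 CPM in Y1F, 96.0 and 98.4 CPM in S7A, and 105 and 106 CPM in WT, a change of 1.24 ± 0.0435 (edgeR adjusted p = 5.18e-10). The Y1F libraries lay above the other 4 and S7A close to WT. rpb8 changed by 0.47 ± 0.0674, rpb9 by −0.39 ± 0.0696 and rpb7 by −0.34 ± 0.0629.

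The cytosolic ribosomal protein genes were mostly not called, with 113 of 131 not called, 12 higher (9.16%, beside 25.7% of all genes) and 6 lower (4.58%, beside 23.0%) in Y1F. The 12 became 7 without S7A replicate 1 or Y1F replicate 1. The 6 ranged from 0 without Y1F replicate 2 to 33 with only the 4 compared libraries fitted, and was 20 by DESeq2. 2 of the 12 stood apart. rps2202 (SPAC5D6.01), 1 of 2 near-identical genes for the same protein of the small subunit, was at 469 and 489 CPM in Y1F, 188 and 191 CPM in S7A, and 435 and 431 CPM in WT (1.33 ± 0.0480, edgeR adjusted p = 5.96e-10). rpl1603 was at 122 and 119 CPM in Y1F, 63.6 and 68.3 CPM in S7A, and 161 and 161 CPM in WT (0.87 ± 0.0480). In both S7A was the lowest strain. Reads shared between copies make the level of each copy uncertain.

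Histone genes were higher in Y1F, 8 of 10 (80.0%, beside 25.7% of all genes) with none lower and a median of 0.25. hta1 was at 829 and 819 CPM in Y1F, 562 and 574 CPM in S7A, and 460.2 and 499.7 CPM in WT (0.54 ± 0.0488), and hhf2 at 373 and 388 CPM in Y1F and 265 and 274 CPM in S7A (0.50 ± 0.0470). Histone genes have near-identical copies, so reads could have been split between them. Of 15 targets of the G1 to S factor MBF, 6 were higher (40.0%, beside 25.7% of all genes) and 3 lower (20%, beside 23.0%). The 3 became 1 without Y1F replicate 1, Y1F replicate 2 or S7A replicate 2 and by DESeq2. nrm1 and tos4 changed by 0.48 ± 0.0429 and 0.45 ± 0.0546, and the ribonucleotide reductase genes cdc22 and suc22 by 0.39 ± 0.0572 and −0.43 ± 0.0512.

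Of 18 glycolysis and fermentation genes 4 were higher (22.2%, beside 25.7% of all genes) and 6 lower (33.3%, beside 23.0%) in Y1F. The 6 became 10 without WT replicate 1. tdh1, for glyceraldehyde phosphate dehydrogenase, was at 16347 and 15481 CPM in Y1F, 21111 and 20876 CPM in S7A, and 14276 and 13389 CPM in WT (−0.40 ± 0.0791), while tpi1 and pgk1 changed by 0.42 ± 0.0696 and 0.31 ± 0.0752. Of the lower genes, eno102 (−1.57 ± 0.199), an enolase gene near the left end of chromosome II, and hxk1 (−0.52 ± 0.0471) changed most clearly. Of 14 genes of hexose transport and glucose derepression 2 were lower (14.3%, beside 23.0% of all genes) and 1 higher (7.14%, beside 25.7%) in Y1F. The count of higher genes changed with Y1F replicate 2 left out. ght2 was at 90.0 and 96.6 CPM in Y1F, 207 and 235 CPM in S7A, and 126 and 153 CPM in WT (−1.24 ± 0.0890), and ght8 changed by 0.37 ± 0.0575. The hexose transporter genes are similar to each other in sequence, so reads could have been split between them.

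Of 11 flocculin genes and their regulators 6 were lower (54.5%, beside 23.0% of all genes) and 4 higher (36.4%, beside 25.7%) in Y1F. pfl8 was at 7.71 and 8.96 CPM in Y1F, 32.4 and 25.6 CPM in S7A, and 23.5 and 29.0 CPM in WT (−1.77 ± 0.147), and mbx2, for a MADS-box factor that activates flocculins, changed by −0.60 ± 0.0961. cbf11, for a repressor of flocculation, was higher at 0.39 ± 0.0439. Of 5 Tf2 retrotransposon IDs tested, out of 13, 4 were higher (80%, beside 25.7% of all genes), with Tf2-11 at 1.67 ± 0.318 and Tf2-2 at 1.12 ± 0.233. Against WT none was called in Y1F (median 0.08), and 3 were lower in S7A (median −0.99). The 4 became 2 without Y1F replicate 1, Y1F replicate 2 or S7A replicate 1, and by DESeq2, and Tf2 copies are near-identical. Of 11 cell separation genes 1 was higher (9.09%, beside 25.7% of all genes) and 3 lower (27.3%, near the 23.0%), with fkh2 at −0.32 ± 0.0511. The 3 became 1 without Y1F replicate 1, and the 1 became 0 without S7A replicate 1 or Y1F replicate 2 and 2 with only the 4 compared libraries fitted. Of 8 genes used as auxotrophic markers 1 was higher (12.5%, beside 25.7% of all genes), ade1 at 0.32 ± 0.0510. There were 3 lower (37.5%, beside 23.0%), with lys1 at −0.33 ± 0.0477. The higher count was 2 with only the 4 compared libraries fitted, and it also changed with either S2A replicate left out.

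Transcripts of the mitochondrial genome were all lower in Y1F. Of 36 IDs tested 36 were lower (100%, beside 23.0% of all genes), with a median of −0.996. They were 2.67% and 2.86% of all counts in the Y1F libraries, 3.65% and 3.55% in S7A, and 2.10% and 2.70% in WT. All 25 mitochondrial tRNA IDs (median −1.15) and all 11 others (median −0.47) were lower. Against WT 2 were higher and none lower in Y1F, and all 36 were higher in S7A, beside 17.6% and 23.1% higher over all genes. SPMIT.03 was at 499 and 525 CPM in Y1F, 922 and 921 CPM in S7A, and 322 and 484 CPM in WT (−0.85 ± 0.127), and the tRNA ID SPMITTRNATHR.01 changed by −2.32 ± 0.250, or by −2.97 without Y1F replicate 2.

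Nuclear tRNAs, which had few counts, were also lower in Y1F. Of 42 tested, out of 171 IDs, 28 were lower in Y1F (66.7%, beside 23.0% of all genes) and none higher, with a median of −1.20. At such low counts the filter favoured IDs that were high in some strain, such as S7A. The 28 became 17 without Y1F replicate 2 and 14 by DESeq2. They made up 0.00485% and 0.00485% of all counts in the Y1F libraries, 0.0105% and 0.0101% in S7A, and 0.00372% and 0.00475% in WT. Against WT 2 were higher in Y1F and 30 in S7A, beside 17.6% and 23.1% of all genes, and none was lower in either. Of 44 small nuclear and nucleolar RNAs, 6 were higher (13.6%, beside 25.7% of all genes) and 8 lower (18.2%, beside 23.0%), with a median of −0.06, or −0.18 without Y1F replicate 1. The 8 became 5 without S7A replicate 2 and 4 without Y1F replicate 2. snoR69 was at 7.71 and 6.88 CPM in Y1F, 35.4 and 31.7 CPM in S7A, and 12.2 and 11.7 CPM in WT (−2.21 ± 0.116).

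**Figure D5:**
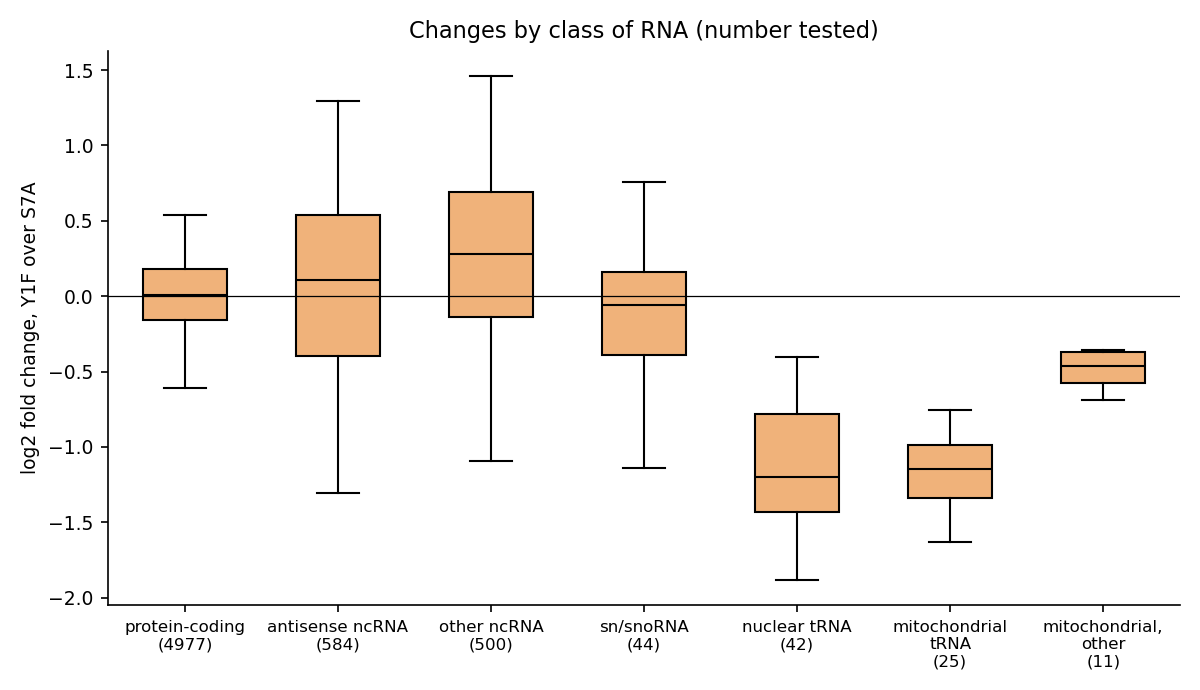
Log2 fold change of Y1F over S7A by class of RNA, with boxes from the lower to the upper quartile, the median as a line and whiskers at the 5th and 95th percentile. Nuclear and mitochondrial tRNAs have medians of −1.20 and −1.15, while protein-coding genes, without the SPBPB2B2 IDs, have a median of 0.01.

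Noncoding RNAs were more often higher than lower in Y1F. Of 1084 tested, 305 were higher (28.1%, beside 25.7% of all genes) and 122 lower (11.3%, beside 23.0%), with a median of 0.19. Against WT, 147 were higher and 193 lower in Y1F (median −0.05), and 106 higher and 316 lower in S7A (median −0.23). Over all genes 17.6% were higher and 17.4% lower in Y1F than in WT, and 23.1% and 24.3% in S7A. For the count against S7A, the following alternatives differed. The 122 became 81 without S7A replicate 2 and 72 with a filter of 5 CPM, which left fewer to test. A noncoding RNA was taken as antisense where at least 50% of its length lay opposite to a coding gene. Of 584 tested 152 were higher in Y1F (26.0%) and 77 lower (13.2%), with a median of 0.11, so that their share of higher calls was near the 25.7% of all genes. They were 0.347% and 0.350% of all counts in the Y1F libraries, 0.283% and 0.285% in S7A, and 0.323% and 0.336% in WT. For all noncoding RNAs together the shares did not separate the mutants, at 1.07% and 1.09% in Y1F, 1.01% and 1.38% in S7A, and 1.115% and 1.29% in WT. Of 320 noncoding RNAs with no overlap on the other strand 85 were higher (26.6%, near the 25.7% of all genes) and 34 lower (10.6%, beside 23.0%), with a median of 0.23.

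Antisense and sense calls were set side by side for 581 pairs. Where the antisense RNA was higher in Y1F, in 150 pairs, 46 sense genes were lower (30.7%) and 28 higher (18.7%). Where the antisense RNA was lower, in 77 pairs, 14 sense genes were lower (18.2%) and 34 higher (44.2%). Where it was not called, in 354 pairs, 77 sense genes were lower (21.8%) and 85 higher (24.0%). The differences between these shares were not tested, and the reads of an RNA and its partner can be told apart only where the counting used the strand. The sources used here do not give that setting.

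The antisense RNA that rose most was SPNCRNA.1579, opposite swi3 of the fork protection complex, at 11.6 and 12.5 CPM in Y1F, 1.20 and 1.38 CPM in S7A, and 2.62 and 3.57 CPM in WT (3.21 ± 0.187, edgeR adjusted p = 5.11e-08); swi3 was not called (−0.19). SPNCRNA.1687, opposite the vacuolar sorting receptor gene vps10, was at 39.6 and 39.2 CPM in Y1F, 5.99 and 6.44 CPM in S7A, and 20.5 and 17.6 CPM in WT (2.66 ± 0.0944); vps10 was lower (−0.35). SPNCRNA.1492 and SPNCRNA.1664, opposite rct1 and tim54, changed by 2.40 ± 0.155 and 2.36 ± 0.210, and their sense genes were not called. In the other direction SPNCRNA.1557, opposite the demethylase gene lid2, had 5 and 20 counts in Y1F, 268 and 328 in S7A, and 60 and 55 in WT (−4.46 ± 0.219, and −5.35 without Y1F replicate 2), and lid2 was lower (−0.20).

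Several protein-coding genes outside these lists also had large changes. mpn1 (SPAC23C11.10), for the exonuclease that trims U6 snRNA, was at 54.5 and 59.2 CPM in Y1F, 9.76 and 11.02 CPM in S7A, and 10.3 and 13.0 CPM in WT (2.45 ± 0.0945, edgeR adjusted p = 1.35e-09). psf3 (SPAC227.16c), for a subunit of the GINS replication complex, was at 6.76 and 6.83 CPM in Y1F, 45.2 and 43.2 CPM in S7A, and 38.5 and 37.7 CPM in WT (−2.70 ± 0.0914, edgeR adjusted p = 3.80e-10). In both it was Y1F that stood apart from S7A and WT. gas4 (SPBC342.03), for a glucan-remodelling enzyme of the spore wall, was at 188 and 187 CPM in Y1F, 49.4 and 51.1 CPM in S7A, and 158 and 156 CPM in WT (1.90 ± 0.0440, edgeR adjusted p = 1.22e-11). Here S7A stood apart. The flavin oxidoreductase gene SPBC23G7.10c was at 4.04 and 4.44 CPM in Y1F, 21.8 and 20.4 CPM in S7A, and 15.5 and 16.9 CPM in WT (−2.30 ± 0.120). SPAPB18E9.04c, of unknown function, was at 63.8 and 79.7 CPM in Y1F, 10.4 and 13.1 CPM in S7A, and 19.97 and 20.5 CPM in WT (2.61 ± 0.120), and SPAC8E11.12, also of unknown function, changed by 2.37 ± 0.281.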

How the data were processed

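Total RNA of 4 strains (WT, S2A, S7A and Y1F; 2 libraries each) was sequenced after rRNA depletion. The deposited table gives the authors' raw counts per gene ID and library. HISAT2, featureCounts, StringTie, DESeq2, deepTools and build ASM294v2 are named in the submitters' processing notes; their versions and the strand setting are not stated there. Of 7000 IDs, 6797 matched the reference annotation by locus tag. That annotation is of another build, ASM294v3, so it gave names, classes, order and overlaps only, and no coordinates or sequences are printed.

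Testing used edgeR 4.0.16 (R 4.3.3). The 6243 genes kept by filterByExpr, at a minimum count of 10 and a minimum total of 15, were TMM-scaled. A single quasi-likelihood fit took in every library of the 4 strains, giving 4 residual degrees of freedom, a common dispersion of 0.00197 and a BCV of 4.44%. Y1F was contrasted with S7A, and each with WT, and a gene was called where its p, adjusted over all tested genes by Benjamini and Hochberg, was under 0.05. Standard errors came from the ratio of the log2 change to the root of F. Replicates had Spearman correlations across genes of 0.9974 to 0.9988 and differed by more than sampling noise. DESeq2 1.42.0 was an alternative. The fit was also run on simulated data, and the outcome is not given here. A strain with 0 counts was set to 3 over the group to bound a fold, and totals of 1 to 3 have exact 95% intervals for counting error. Python 3.11.15 with numpy 2.4.6, pandas 2.3.3 and matplotlib 3.10.9 made the remaining tables and the figures.

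The compared strains, gene lists and alternatives were chosen with earlier results of these data known. The named genes were rpb1, rpb3 and every SPBPB2B2 ID, then, among called genes whose libraries did not overlap, in each direction the 12 protein-coding genes that changed most at 5 CPM or more in the higher strain, the 5 such noncoding RNAs at 1 CPM or more, and for each list its 4 most changed called members (2 where ID or class defines the list). pho1, pho84, tgp1, ste11, mei2, set2, lsk1 and pcf11 were always taken. 1 noncoding RNA named by this rule is not reported here. Some named genes fell outside this rule and were chosen after their values were seen. Among them were the neighbours of the SPBPB2B2 block, tlh1, ncRNA.1343, ctr4, meu27, nmt1, map1, mam1, sense partners of antisense RNAs, and those in the closing observations. Further members of lists beyond the most changed were also chosen this way. Such genes include ssm4, crs1 and dmc1 of the meiosis list and tps1, ntp1, atf1, hsp9, zym1 and pyp2 of the stress list. Lists were described by counts and medians, with no set test. The alternatives were RLE scaling, scaling on protein-coding genes, no filter, a filter of 5 CPM, fitting the 4 compared libraries alone, a replicate block, leaving out the SPBPB2B2 IDs, DESeq2, the omission of single libraries, a threshold of 2-fold and, for antisense RNAs, any overlap.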

Additional observations from a re-analysis of the deposited data

How the results depend on the processing

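The count of 3042 called genes was 2791 to 3376 under RLE scaling, scaling on protein-coding genes, no filter, a filter of 5 CPM, a fit of the 4 compared libraries alone and without the SPBPB2B2 IDs, 2305 by DESeq2, and 429 with a 2-fold threshold added. Leaving out 1 library gave 2174 (S7A replicate 2) to 3235 (WT replicate 1). The 429 genes of at least 2-fold became 252 with a filter of 5 CPM, where 5481 genes were tested, and 388 to 441 with 1 library left out. The 12 SPBPB2B2 IDs that were lower became 9 with a filter of 5 CPM, which left fewer to test, and 11 to 13 with 1 library left out. Among antisense RNAs, 152 higher and 77 lower became 118 and 50 with a filter of 5 CPM, 111 and 53 by DESeq2, 220 and 88 with any overlap, and 115 to 158 and 54 to 85 with 1 library left out. The replicate numbers gave no sign of pairing Y1F with S7A: their same-numbered libraries had deviations that correlated at −0.0799. The value was 0.268 for WT and Y1F and −0.0938 for WT and S7A. With S2A it was −0.187 for WT, 0.150 for S7A and −0.150 for Y1F. A replicate block gave 2958 called genes. Of 2245 values of the 142 named genes with a test, 2198 kept their direction and side of the threshold, and 44 values of 16 genes lost the call: mam4, adg2, sds3, cph2, pfl9, cph1, eng1, pfl7, gpa1, cfh4, rep1, snu5, hsp104, SPBPB2B2.14c, mfm3 and ade6. With 1 library left out, the uncalled lsk1 ranged from −0.0001 (without Y1F replicate 1) to 0.0473 and the uncalled ste11 from −0.068 (without S7A replicate 2) to 0.1464, with −0.0222 without Y1F replicate 2. The cause of these changes was not tested.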

Other observations

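The genes described here were chosen after their values were seen, so no test supports their choice. Noncoding RNAs annotated at the centromeres, where RNA interference and heterochromatin act, were low in Y1F and WT and high in S7A. The 26 such IDs had 32 and 55 counts in the Y1F libraries, 631 and 789 in S7A, and 34 and 41 in WT. Of the 5 that were tested all 5 were lower in Y1F than in S7A (100%, beside 23.0% of all genes). Against WT all 5 were higher in S7A, beside 23.1% of all genes. The count filter kept IDs that were high enough in any strain. With so few counts in Y1F and WT it favoured IDs high in S7A, so both shares are partly set by the filter. SPNCRNA.231 had 0 counts in both Y1F libraries, 97 and 128 in S7A, and 2 and 2 in WT, which with 3 counts as the limit over the Y1F group was at least 69.2-fold lower. SPNCRNA.234 had 8 and 20 counts in Y1F, 241 and 334 in S7A, and 7 and 10 in WT (−4.23 ± 0.232, edgeR adjusted p = 3.28e-08). SPNCRNA.373 had 6 and 12 counts in Y1F, 147 and 147 in S7A, and 8 and 9 in WT (−3.91 ± 0.286). These RNAs come from repeated sequence, so the assignment of reads to single IDs is uncertain.

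Several further genes outside the stress list were also lower in Y1F. gst2, for a glutathione S-transferase, was at 69.2 and 60.5 CPM in Y1F, 319.9 and 292 CPM in S7A, and 193 and 168 CPM in WT (−2.25 ± 0.0986, edgeR adjusted p = 4.10e-09). SPCC663.08c, a predicted short-chain dehydrogenase gene, was at 5.73 and 4.75 CPM in Y1F, 22.8 and 18.7 CPM in S7A, and 12.3 and 11.4 CPM in WT (−2.00 ± 0.140). SPAC27D7.09c, of the But2 family, was at 3.53 and 2.75 CPM in Y1F, 13.2 and 13.0 CPM in S7A, and 8.84 and 11.1 CPM in WT (−2.10 ± 0.161). In these 3 genes Y1F was the lowest strain and S7A the highest. SPBC19C7.04c, of unknown function, was at 21.1 and 23.1 CPM in Y1F, 90.6 and 97.9 CPM in S7A, and 10.9 and 12.2 CPM in WT (−2.09 ± 0.0697), so that Y1F lay between WT and S7A.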
